A study of Nymphaea colorata and Nymphaea micrantha with 16 samples.

Results

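The genes described here were those whose RNA was high in the submerged, rolled leaves and low in the later leaves of both water lily species. Values were deposited as FPKM, the reads on a gene set against its length and against the total of its library, and were taken as log2(FPKM + 1). In each species the highest of the 4 libraries of stages 3 and 4 was subtracted from the lowest of the 4 libraries of stages 1 and 2, and the smaller of the 2 species' values was the score of the gene. The 200 genes with the highest score, of 31475 genes in the table, were the members. A score above 0 was reached by 2030 genes. The members were selected on these FPKM values, so the drop from stages 1 and 2 to stages 3 and 4 chose the members and is described without a test.

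RNA was sequenced at 4 leaf stages in *N. micrantha* (X-species), which is viviparous and forms plantlets on its leaves, and in *N. colorata* (L-species), which is not. The leaves of the first stages were rolled up under water and measured 1 to 2 cm (stage 1: L1, X1) or 4 to 6 cm (stage 2: L2, X2). Unrolling had begun at stage 3 (L3, X3), when the tip had risen to the surface. Leaves of stage 4 (L4, X4) lay open, and those of X alone bore the viviparous mark at their centre. In X the paper saw the viviparous structure from stage 2 on, and plainly at stages 3 and 4. Plants of both species were grown without a further treatment, leaves of several plants were pooled in a sample, and each of the 8 groups has 2 libraries here, 16 in all. The leaf samples included the nose at the junction of leaf and stem, from which, by the paper, new plantlets grow in viviparous water lilies. In pooled leaf samples, fewer cells of a type and less RNA per cell cannot be told apart.

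A young leaf grows first by cell division and later mainly by cell expansion. Dividing plant cells make histones and replication proteins while DNA is copied, then cyclins and cyclin-dependent kinases that drive entry into mitosis, then spindle motors and a cell plate, built on the microtubules of the phragmoplast, that separates the daughter cells. RNA of these genes is typical of meristems and leaf primordia and is scarce in mature leaf blades.

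The depth on genes was 37118842 to 51396582 reads a library in L and 24815135 to 31440253 in X, so low levels were measured more coarsely in X. The paper lists similar numbers of cleaned reads for both species, so a smaller part of the X reads was counted on these genes. The cause of this, and its part in the differences between the species below, was not tested. The filter for testing, an FPKM of 1 or more in 2 or more libraries, was passed by 18160 genes and by all 200 members, which had to pass it through their submerged stages. The replicates of L3 stood apart in the members: replicate 1 was lower than replicate 2 in 199 of 200, and replicate 1 minus 2 was -1.29 on the log2 scale on average, against -0.05 over all genes tested. In X1 replicate 1 was higher in 185 members, and in X2 replicate 1 was higher in 167. A list of 23 leaf marker genes of photosynthesis and carbon fixation had no gene at 0 in all libraries and no member. Its summed FPKM was 2006 to 10473 in L1 and L2 and 12734 to 21978 in L3 and L4. In X the sum was 7397 to 19572 in X1 and X2, 41094 to 42187 in X3 and 5785 to 7303 in X4. The single genes did not all change alike. In L, 17 of the 23 had a higher mean in L3 and L4 than in L1 and L2, and the others did not. In X, 15 of the 23 had a higher mean in X3 and X4 than in X1 and X2, and the others did not. The part of these marker levels in the results below was not tested.

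The median member had a group mean of 42.8 FPKM in L1, 32.6 in L2, 5.19 in L3 and 0.554 in L4. In the X-species the medians were 18.5 in X1, 20.5 in X2, 1.05 in X3 and 1.52 in X4. The median of all genes tested stayed between 7.90 and 11.9 FPKM in the 8 groups. Of the submerged level, the median member kept 13.1% in L3 and 1.32% in L4, but 4.64% in X3 and 7.24% in X4. The median level was thus lowest at stage 4 in L and at stage 3 in X, and single members varied. Their group mean was under 1 FPKM for 14 members in L3, 126 in L4, 98 in X3 and 74 in X4. Summed, the members took 4.47% to 5.74% of all FPKM in the libraries of L1 and L2, 1.41% to 3.01% in X1 and X2, and no more than 0.93% in any later library.

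**Figure D1:**
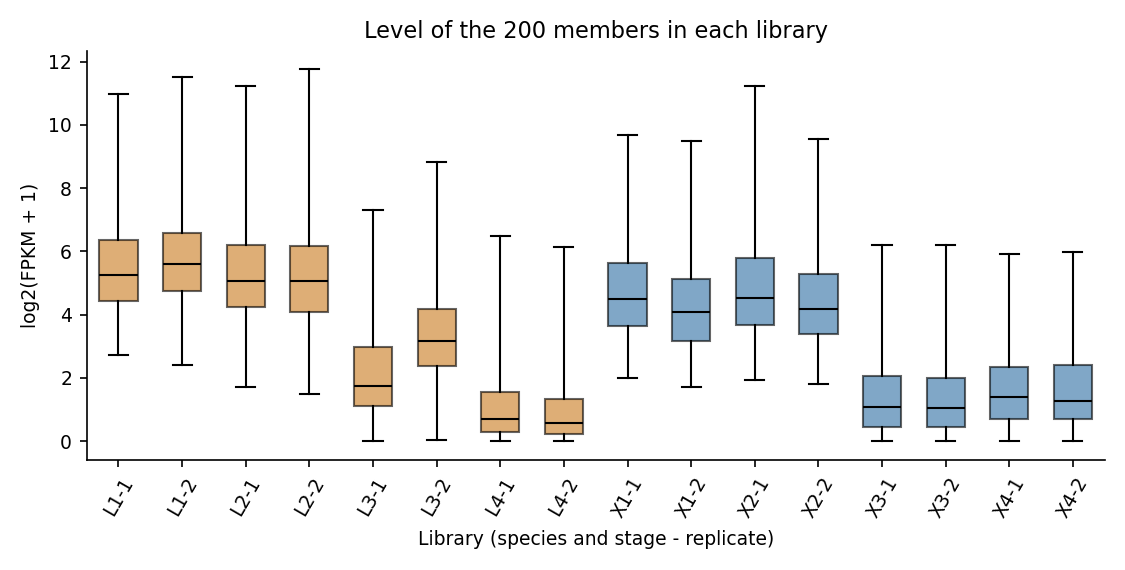
Level of the 200 members, as log2(FPKM + 1), in each of the 16 libraries of the L-species (orange) and the X-species (blue). Boxes span the quartiles with the median as a line, and whiskers reach the lowest and highest member. The medians of the L3 libraries, 2.32 FPKM in replicate 1 and 7.94 in replicate 2, lie apart, and those of L4 (0.630 and 0.496) are below those of X4 (1.64 and 1.42).

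A gene ontology term or pathway was readable for 72 members, and 52 of these were in at least 1 of 15 gene lists. Cell division held 24 members of 194 listed genes tested, DNA replication and histones 13 of 87, microtubules and kinesins 13 of 78, and leaf and meristem development 8 of 160. The list of receptor kinases held 7 of 74, but its pattern also takes other serine/threonine kinases and their regulators, and its 4 members with the highest scores carry terms of cyclin-dependent kinases. No member was in the lists of photosynthesis (162 genes tested), the cuticle (45), phenylpropanoids (85) or low oxygen (29). Over all 3829 genes tested with a term, 72 were members. At that share the lists of 29 to 85 genes would hold few members or none. For the other 128 members no term was readable, and they are named by ID only. The lists are not exclusive, and a gene can be in several. The terms come from tables of the genes that the study called as differing between the species, so lists and terms were chosen on these samples and their counts are no independent evidence of a direction. At stage 4, 78.8% of the genes tested with a term differed between the species by the test used below, and 18.6% of those without a term.

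The histones and other nucleosome proteins, which package newly copied DNA, were among the most abundant members. NC5G0051050, annotated to nucleosome assembly, had 1998 and 2901 FPKM in L1, 2417 and 3450 in L2, 59.9 and 376 in L3, and 11.9 and 7.73 in L4. In X it had 489 and 418 in X1, 1435 and 341 in X2, 37.1 and 41.4 in X3, and 35.2 and 41.9 in X4. Every L4 library was below every X4 library, whereas every submerged L library was above every X library. NC10G0145430, also a nucleosome gene, had 652 to 902 FPKM in the submerged L libraries and 2.66 and 6.26 in L4, and 165 to 649 in the submerged X libraries and 10.8 and 12.3 in X4. NC1G0107950, with terms of chromatin organization, had 191 to 262 FPKM in L1 and L2, and 0.934 and 1.34 in L4. It was the only member with a readable term among the 10 with the highest scores.

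Of the 6 nucleosome members without a helicase term, the other 3 ended higher in L4 than in X4. NC5G0050880 had 89.1 and 69.7 FPKM in L4 and 23.3 and 33.0 in X4. NC11G0115760 had 33.0 and 30.0 in L4 and 8.14 and 4.52 in X4. NC1G0306340 had 4.91 and 5.40 in L4 and 1.05 and 0.693 in X4. In all 6 the first X2 library was above the second, by 2.84 to 4.41 times, compared with a median of 1.45 over all members, 1.34 over the 24 cell division members and 0.980 over the genes tested. These 6 were set side by side after their values were seen, and NC9G0170740, with nucleosome and helicase terms, had 13.8 and 11.6 FPKM in X2.

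Replication genes kept different shares of their submerged level in the species. NC2G0001070, a ribonucleotide reductase gene, whose enzyme makes the deoxynucleotides for DNA synthesis, had 206 to 287 FPKM in L1 and L2, 40.9 and 73.1 in L3, and 47.7 and 29.1 in L4. In X it had 81.7 to 161 FPKM in the submerged libraries, 5.49 and 5.99 in X3, and 6.25 and 9.32 in X4. It thus kept 15.4% of its submerged level in L4 and 6.36% in X4. The MCM genes, subunits of the helicase that unwinds DNA at replication origins, went the other way, and were picked outside the naming rule after their values were seen: NC4G0153740 kept 3.32% in L4 and 16.2% in X4, NC1G0181280 2.62% and 15.3%, and NC9G0114400 4.76% and 18.7%. NC9G0170740 was the last member.

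The named kinases and cyclins of the cell cycle had lower FPKM than those 6 nucleosome members in every submerged L library. NC1G0103980, with cyclin-dependent kinase activity and a term of the G2/M transition, had 75.3 to 111 FPKM in L1 and L2, 3.96 and 15.2 in L3, and 1.27 and 0.607 in L4. In X it had 47.3 to 89.0 in the submerged libraries, 2.30 and 1.59 in X3, and 4.46 and 3.71 in X4. NC1G0180600, another kinase of this kind, kept 1.36% of its submerged level in L4 and 5.51% in X4. Among the regulatory subunits, the cyclin-type genes, NC1G0181420 had 0.503 and 0.177 FPKM in L4 and 2.16 and 1.97 in X4. NC8G0213590 had 5.24 and 3.86 FPKM in X3 and a mean of 1.46 in X4, so that it ended lower in X4 than in X3.

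The genes of the spindle, the phragmoplast and the cell plate had the same outline. NC10G0065770, a SNARE gene of the cell plate, which fuses vesicles as the new wall forms, had 170 and 209 FPKM in L1, 182 and 185 in L2, 7.99 and 31.7 in L3, and 1.38 and 0.504 in L4. In X it had 94.1 and 79.7 in X1, 156 and 70.1 in X2, 2.65 and 2.08 in X3, and 6.09 and 5.08 in X4. The L4 libraries lay below all X3 and X4 libraries. The kinesin gene NC11G0115860, a microtubule motor, had 37.8 to 49.7 FPKM in L1 and L2 and 0.432 and 0.255 in L4, and 18.5 to 31.8 in X1 and X2 and 1.64 and 0.973 in X4. NC1G0105110, a microtubule binding gene of the preprophase band and the phragmoplast, had 0.314 and 0.451 FPKM in L4 and 1.33 and 1.07 in X4. NC1G0131640, a histone H3 kinase of the chromosome passenger complex, had 2.49 and 2.01 in L4 and 4.99 and 5.53 in X4. NC6G0252740, with terms of microtubule and calmodulin binding, had 0.817 and 0.341 in L4 and 4.77 and 4.13 in X4. By the test used below, the stage 4 difference between the species was called for NC10G0065770 and NC6G0252740. It was not called for NC11G0115860, NC1G0105110 or NC1G0131640.

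**Figure D2:**
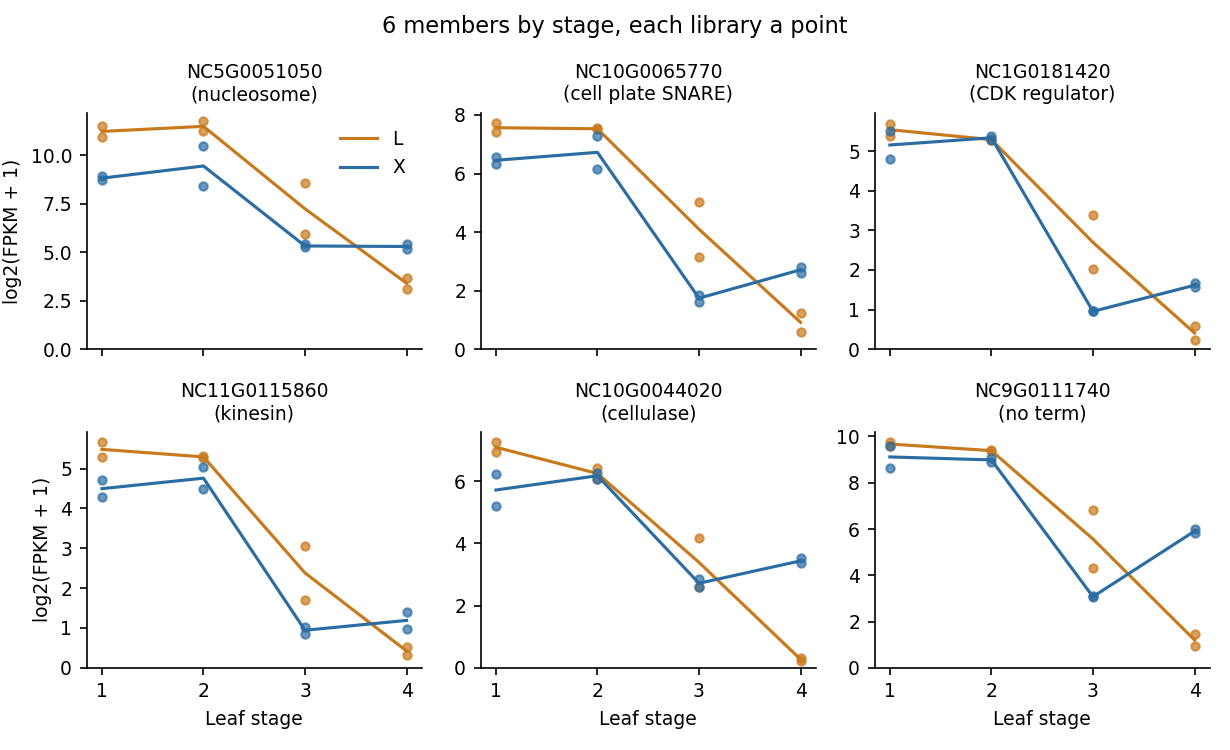
Level of 6 members, as log2(FPKM + 1), by leaf stage in the L-species (orange) and the X-species (blue). Points are libraries, lines join the group means, and each panel has its own vertical axis from 0. In each of the 6 panels the L4 libraries are below the X4 libraries, while at stage 3 the mean of L is above that of X. The 6 were picked by hand from the named genes. Over the 200 members, X minus L at stage 4 was above 0 in 159 and below 0 in 40.

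Members tied to walls, hormones and leaf form were fewer. Of the listed genes tested, 3 of 224 for cell wall growth, 2 of 101 for auxin and 3 of 302 for other hormones were members. For transcription factors it was 4 of 148, and for leaf and meristem development 8 of 160. Over all genes tested with a term it was 72 of 3829. NC10G0044020, a cellulase gene, whose enzyme loosens or trims cell wall glucans, had 121 and 150 FPKM in L1, 83.7 and 66.6 in L2, 5.05 and 17.1 in L3, and 0.252 and 0.168 in L4. In X it had 74.5 and 35.3 in X1, 75.7 and 66.6 in X2, 6.18 and 5.02 in X3, and 9.21 and 10.5 in X4. The X4 libraries were above the X3 libraries, and the L4 libraries were below all of them. NC5G0158920, a cellulose synthase type gene of the primary wall, had 0.388 and 0.263 FPKM in L4 and 1.55 and 1.19 in X4. NC12G0188760, a glycosyltransferase with cell wall terms, had 0.0327 and 0.0304 in L4 and 2.80 and 3.22 in X4. NC1G0065270, with terms of the gibberellin response, had 60.8 to 108 FPKM in L1 and L2, 1.97 and 21.3 in L3, 0.068 and 0.0845 in L4, and 2.14 and 3.61 in X4. NC3G0229980, of ethylene signalling, had 3.20 and 2.42 in L4 and 10.5 and 8.94 in X4.

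NC2G0037660, an amino acid symporter gene with an auxin signalling term, had 0.0151 and 1.88 FPKM in L3, 0.016 and 0.0297 in L4, 0.268 and 0.116 in X3, and 2.85 and 3.91 in X4. NC4G0153390, annotated to stomatal patterning and asymmetric cell division, was listed at 0 in L3 replicate 1 and in both L4 libraries, and at 0.973 and 0.540 FPKM in X4. Of the transcription factors, NC10G0232760 was also at 0 in both L4 libraries and at 2.17 and 2.85 in X4, and NC4G0022170 was at 0.123 and 0 in L4 and at 0.994 and 0.632 in X4. NC10G0143520 had 2.64 and 1.43 FPKM in L4 and 23.5 and 27.9 in X4, and NC9G0271710 had 0.0947 and 0.0588 in L4 and 5.55 and 6.31 in X4.

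Most of the 10 highest scores belonged to genes with no readable term. NC7G0278310 led with a score of 2.59: it had 929 to 1316 FPKM in L1 and L2, 126 to 558 in X1 and X2, 3.03 and 7.07 in L4, and 4.66 and 3.79 in X4. The lowest submerged L library was at 1678 FPKM for NC10G0144960, at 1735 for NC2G0285230 and at 1874 for NC9G0274450. NC6G0257080, NC6G0257240 and these 4 were each higher in the first X2 library than in the second, as the nucleosome members were. NC3G0208800 differed from them in that its submerged levels were alike in the species, with 370 to 518 FPKM in L and 328 to 522 in X. NC9G0147430 was the least abundant of the 10, with 20.1 to 25.8 FPKM in L1 and L2. NC9G0111740 had 655 to 872 FPKM in L1 and L2, 18.8 and 113 in L3, and 0.914 and 1.77 in L4. In X it had 398 to 769 in X1 and X2, 7.61 and 7.24 in X3, and 55.5 and 62.8 in X4.

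At the threshold, NC2G0004970 and NC9G0170740 were the last genes inside, both with a score of 1.22, and NC5G0161110 and NC2G0286540 were the first outside, with 1.218 and 1.215. NC5G0161110 had 45.6 to 88.2 FPKM in X1 and X2 and 14.4 to 19.0 in X3 and X4. The score of L was the smaller in 147 members and that of X in 53. The members had a median gene length of 1536 bases, against 1715 over the genes tested.

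Whether the members went on falling after the leaf reached the surface was asked by comparing stage 4 with stage 3, an order that the rule does not use, although it takes the highest of these libraries. Tests were made with limma on log2(FPKM + 1), with Benjamini-Hochberg adjustment over the 18160 genes, and a gene was called at an adjusted p under 0.05 and a difference of at least 1. In L, 154 members fell and none rose, where 9.49% of all genes tested fell and 6.67% rose. The median difference of the members was -1.62, beside -0.02 over the genes tested, and both L4 libraries were below both L3 libraries in 184 members (38.5% of genes tested). Among the listed members, 21 of 24 for cell division, 12 of 13 for DNA replication and histones and 11 of 13 for microtubules and kinesins fell, lists that were chosen on these samples. Of the other listed genes, 23 of 170 for cell division, 6 of 74 for DNA replication and histones and 16 of 65 for microtubules and kinesins fell. Of the 72 members with a term 62 fell, and of the 128 without a term 92. Among the genes tested, 539 of 3829 with a term and 1184 of 14331 without a term fell.

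NC9G0111740 fell most in L, by 4.37 (SE 0.58, limma adjusted p = 0.000163), followed by the nucleosome gene NC5G0051050, by 3.84 (SE 0.73, limma adjusted p = 0.00195). The cyclin-type gene NC8G0213590 fell by 2.87, the cell plate SNARE gene NC10G0065770 by 3.18 and the cellulase gene NC10G0044020 by 3.11. NC3G0208800 did not pass, with -0.66 (95% interval -1.52 to 0.20). These counts rested on the L3 libraries, which differ as given above: 75 members were called without L3 replicate 2, against 13.1% of genes tested, and 176 without L3 replicate 1. Without L4 replicate 2, 96 were called, and in a fit of the 4 libraries compared alone, 27. The median difference was negative in each of these fits, and -0.95 without L3 replicate 2.

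In X, the same step gave 11 members that rose and 9 that fell, 20 in all, against 8.72% and 5.23% of the genes tested and 14% in either direction. These shares are not alike in what could be called, because 55 members were under 1 FPKM in all X3 and X4 libraries, where a difference of 1 on this scale cannot arise, as were 13.1% of the genes tested. With a pseudocount of 0.1 in place of 1, 33 members were called, 23 of them as higher in X4, against 18% of the genes tested. The median difference was 0.24 and that of the genes tested 0.19. NC9G0111740 rose by 2.83 (SE 0.58, limma adjusted p = 0.00347) and NC6G0040010, with an iron-sulfur cluster term, from 1.82 and 0.861 to 8.12 and 8.32 FPKM, by 2.01 (SE 0.61, limma adjusted p = 0.0282). The symporter gene NC2G0037660, the glycosyltransferase NC12G0188760 and the factors NC9G0271710 and NC10G0143520 also rose, by 1.09 to 1.87. The nucleosome genes NC11G0115760 and NC1G0306340 fell by 1.89 (SE 0.43, limma adjusted p = 0.00629) and by 1.67 (SE 0.55, limma adjusted p = 0.0394), and the cyclin-type gene NC8G0213590 by 1.16. Leaving out an X3 or X4 library gave 7 to 10 members: 9 without X3 replicate 1, 7 without X3 replicate 2, 10 without X4 replicate 1 and 8 without X4 replicate 2.

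The difference between the species in this step was itself tested. It was called in 123 members, all with the higher value in X, where 10.6% of the genes tested were called in that direction and 5.07% in the other. The median was 1.78, beside 0.28 over the genes tested. The room to fall was unlike in the species: the group mean was under 1 FPKM for 98 members in X3 and for 14 in L3. From such a level no fall of 1 can arise on this scale, and the part of this in the count was not tested. Among the members, 19 of 24 for cell division, 7 of 13 for DNA replication and histones and 9 of 13 for microtubules and kinesins were called, again in lists chosen on these samples. It was called in 55 of the 72 members with a term and in 68 of the 128 without a term. Of the genes tested, 27.8% with a term and 12.4% without a term were called in either direction. The values were 7.20 for NC9G0111740 (SE 0.82, limma adjusted p = 0.000238) and 4.57 for the gibberellin response gene NC1G0065270 (SE 0.93, limma adjusted p = 0.00621). For the cell plate SNARE gene NC10G0065770 the difference was 4.15, for the cellulase gene NC10G0044020 3.83, and for the cyclin-type gene NC1G0181420 2.94. NC3G0208800 had 0.51 (95% interval -0.70 to 1.73).

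**Figure D3:**
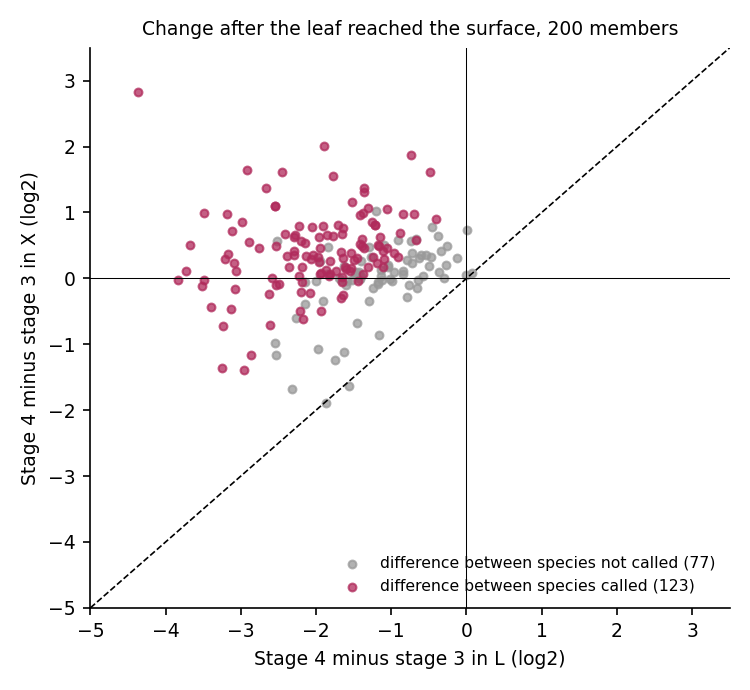
Stage 4 minus stage 3 on the log2(FPKM + 1) scale in the L-species (horizontal axis) and in the X-species (vertical axis), a point for each of the 200 members. The dashed line marks equal change in both species, and red points are the 123 members whose difference between the species was called. Nearly all points lie left of 0 and above the line, with a median of -1.62 in L and 0.24 in X. A stage 3 mean under 1 FPKM, from which no fall of 1 can arise, was found for 98 members in X and 14 in L.

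The count of 123 was lower without any of 7 libraries: 64 without L3 replicate 2, 72 without L4 replicate 1, 60 without L4 replicate 2, 72 without X3 replicate 1, 61 without X3 replicate 2, 75 without X4 replicate 1 and 61 without X4 replicate 2. It was 169 without L3 replicate 1, and 79 with limma's voom on the reads behind the FPKM values. In each of these fits all members called were higher in X, and the median was at least 1.21. The share of all genes tested that was called in these fits is not given. The counts alone therefore do not tell a shift of the members from a shift of all genes.

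The levels of the species were compared at each stage, which the rule does not use. The match of either species' reads to these genes was not tested. Over all genes tested the median of X minus L was -0.23, -0.18 and -0.30 at stages 1, 2 and 3, and level at stage 4. Scaling the libraries by median ratios moved these medians to -0.07, -0.04 and -0.09, and those of the members at stages 1 to 4 were then -0.85, -0.40, -1.14 and 0.50, with 72, 45, 110 and 53 members called. At stage 1, 101 members were lower in X and none higher, against 20.4% and 7.56% of the genes tested, with a median of -1.04. At stage 2, 53 were lower and 2 higher, against 19.1% and 6.18%, with a median of -0.57. At stage 3, 131 were lower and none higher, against 22.2% and 6.57%, with a median of -1.29. At stage 4 the order turned, with 47 higher and 6 lower, against 12.3% and 19% of the genes tested, and a median of 0.52. There 55 members were under 1 FPKM in all libraries of both species and could not be called. With a pseudocount of 0.1, 99 were called, 90 of them higher and 9 lower in X, against 38% of the genes tested in either direction.

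**Figure D4:**
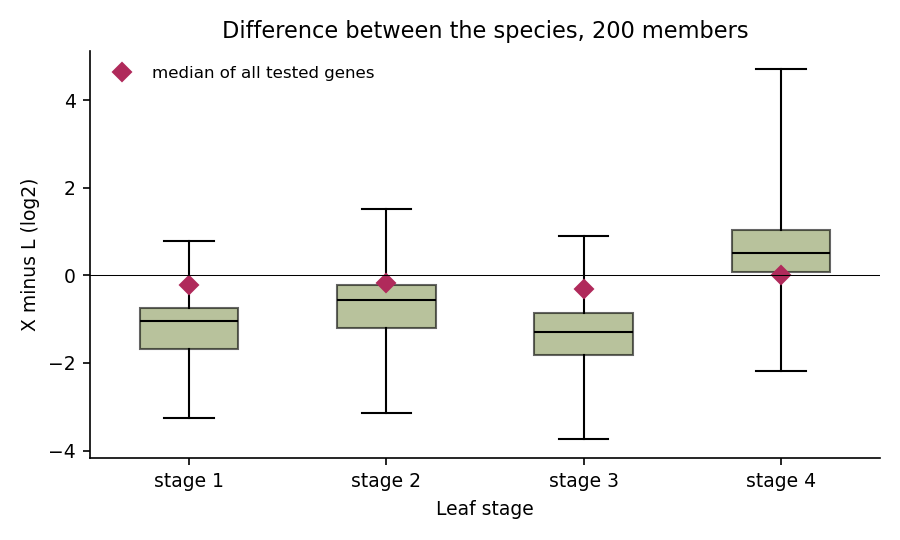
X minus L on the log2(FPKM + 1) scale for the 200 members at each leaf stage. Boxes span the quartiles with the median as a line, whiskers reach the lowest and highest member, and diamonds are the medians of the 18160 genes tested. The median of the members is -1.04, -0.57, -1.29 and 0.52 at stages 1 to 4, below the diamond at the first 3 stages and above it at stage 4.

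In the submerged leaves, NC6G0039180, an ester hydrolase gene of lipid breakdown, had 53.7 to 86.1 FPKM in L1 and L2 and 5.60 to 7.27 in X1 and X2. It was lower in X at stage 1 (X minus L -3.26, SE 0.51, limma adjusted p = 0.000254) and at stage 2, with -3.15. The nucleosome gene NC1G0306340 had 196 to 343 FPKM in the submerged L libraries and 17.1 to 75.4 in those of X, and X minus L was -2.98 at stage 1 and -2.97 at stage 2. The genes higher in X at stage 2 were NC3G0222130, with 2.88 and 1.83 FPKM in L2 and 8.53 and 8.32 in X2, and the stomatal patterning gene NC4G0153390, with 9.74 and 4.28 in L2 and 14.4 and 17.3 in X2. At stage 1 the L and X libraries of both genes overlapped.

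At stage 3, NC9G0274450 had 72.3 and 350 FPKM in L and 9.92 and 12.1 in X (X minus L -3.74, SE 0.71, limma adjusted p = 0.000943), and NC7G0278310 had 25.5 and 154 in L and 4.75 and 3.87 in X. At stage 4, NC9G0111740 was higher in X by 4.70 (SE 0.58, limma adjusted p = 3.11e-05) and NC2G0002510, with 0 and 0.664 FPKM in L4 and 22.2 and 19.2 in X4, by 4.07 (SE 0.90, limma adjusted p = 0.00227). The factor NC10G0143520 and the cellulase gene NC10G0044020 were each higher in X by 3.16. The nucleosome gene NC11G0115760 (X minus L -2.19, SE 0.43, limma adjusted p = 0.001) and the ribonucleotide reductase gene NC2G0001070 (X minus L -2.15, SE 0.35, limma adjusted p = 0.000274) stayed lower in X. Of the 72 members with a term 34 were called as higher in X4 and 4 as lower, and of the 128 without a term 13 and 2. These are 52.8% of the members with a term and 11.7% of those without, against 78.8% and 18.6% of the genes tested. In both sets the members were thus called less often than the genes tested. Most of the calls at this stage were in genes that the study's tables had picked for a difference.

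Over the mean of the 4 stages 58 members were lower in X and none higher, against 18.2% and 5.89% of the genes tested, led by the nucleosome genes NC5G0050880 (X minus L -2.58, SE 0.29, limma adjusted p = 5.82e-06) and NC1G0306340 (X minus L -2.51, SE 0.28, limma adjusted p = 4.65e-06). Single libraries moved the counts by stage. At stage 1 the total was 50 without L1 replicate 2 and 51 without X1 replicate 2. At stage 2 it was 31 without L2 replicate 1, 33 without L2 replicate 2 and 23 without X2 replicate 2. At stage 3 it was 60 without L3 replicate 2, and at stage 4 it was 32 without L4 replicate 2. The sign of the median at each stage was the same in every one of these fits.

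Within the submerged leaves, stage 2 was compared with stage 1, where the rule favours genes with little difference because it takes the lowest of these libraries. In L, 4 members fell and none rose, against 0.76% and 1.13% of the genes tested. NC8G0124910, a methyltransferase gene with terms of auxin homeostasis and leaf polarity, went from 38.8 and 52.7 FPKM in L1 to 8.71 and 5.78 in L2, and fell by 2.51 (SE 0.36, limma adjusted p = 0.00599). NC3G0222130 went from 12.8 and 18.6 to 2.88 and 1.83 FPKM and fell by 2.31 (SE 0.37, limma adjusted p = 0.0108). The glycosyltransferase NC12G0188760 and the stomatal patterning gene NC4G0153390 fell by 1.77 and by 1.83. The count was 0 without L1 replicate 2 or L2 replicate 2, and 10 without either X1 library.

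In X no member was called by limma between stages 1 and 2, against 1.62% of the genes tested. At an unadjusted p under 0.05 there were 3 members, and limma's voom called 0. NC8G0124910 had 20.4 and 7.86 FPKM in X1 and 17.9 and 11.7 in X2, and it was the 1 member whose change differed between the species (0.314% of the genes tested were called in that direction), by 2.68 with the higher value in X (SE 0.50, limma adjusted p = 0.037). That call was lost in 16 of 23 alternative fits, the difference ranging from 2.04 to 3.32 and the limma adjusted p from 0.00172 to 0.311.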

How the data were processed

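Leaf RNA was sequenced by the authors in *N. micrantha* and *N. colorata*. The submitters' processing notes name CASAVA 1.8, fastp 0.20.0, HISAT2 2.1.0, Cufflinks 2.2.1, HTSeq 0.7.2 and DESeq. The paper's methods describe NGS QC Toolkit, a Trinity assembly, htseq-count and cufflinks. The deposited values are FPKM computed by the authors. The reference that defines the gene IDs is not given in the sources used here, and 0 IDs matched RefSeq, so no sequence or position is given. Sample titles gave the groups, with 0 columns unmapped. The methods describe more repeats per group than the 2 libraries analysed here, and p-values measure the spread between these.

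Values were taken as log2(FPKM + 1), which understates changes of low genes. Genes at an FPKM of 1 or more in 2 or more libraries were fitted with limma 3.58.1 in R 4.3.3 (1 mean for each of 8 groups, eBayes with trend, Benjamini-Hochberg adjustment over 18160 genes) in 11 contrasts. The study's tool tests counts, so limma was used for FPKM. Whole reads and library totals were recovered from the FPKM steps (99.999% of values above 0 were whole reads within a relative tolerance of 0.0001). In simulated data with 200 genes changed 4-fold at L4, 95.5% of them and 5 unchanged genes were called. The simulation had 1 fixed setting for the spread between libraries, and genes with few reads were not changed. Its results are therefore not error rates of the real data. Descriptions used Python 3.11.15, pandas 2.3.3, numpy 2.4.6 and matplotlib 3.10.9.

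Members, gene lists and the naming rule were chosen with earlier results of these data known. Named were the 10 highest scores, the 2 genes on each side of the threshold, up to 4 members of each of 15 lists, and up to 2 members a direction in each contrast among those called, without overlap of the libraries in contrasts of 2 groups. The MCM genes were named outside this rule. A gene that the rule names is not reported here. Lists are patterns on the ontology terms and pathways that the readable part of the paper's supplementary tables pairs with 4104 genes, so members without a term may belong to any list. Those tables hold genes that the study called as differing between the species. Alternatives were a pseudocount of 0.1, no filter, only genes seen in both species, scaling by median ratios, a block for the replicate number, fits of the compared libraries only, voom on recovered reads, and leaving out each library. The authors' own comparisons were not used as results, but they entered through the tables of terms.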

Additional observations from a re-analysis of the deposited data

Results flagged for a closer look

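The change from stage 3 to stage 4 differed between the species in 123 members by the test of the difference itself, all with the higher value in X, against 10.6% of the genes tested in that direction and 5.07% in the other. The count was 60 to 169 when a library was left out and 79 with voom. Within these the difference was 7.20 on the log2 scale for NC9G0111740, which has no readable term, and 4.57 for the gibberellin response gene NC1G0065270, and each of these calls was kept in all 23 alternative fits. NC9G0111740 went from 7.61 and 7.24 FPKM in X3 to 55.5 and 62.8 in X4, while in L it went from 18.8 and 113 to 0.914 and 1.77. Many members had little room to fall in X: the group mean was under 1 FPKM for 98 in X3 and for 14 in L3. The part of this in the count of 123 was not tested.

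The change from stage 1 to stage 2 differed between the species in 1 member, the auxin homeostasis and leaf polarity gene NC8G0124910, by 2.68 with the higher value in X, and 0.314% of the genes tested were called in that direction. The call was lost in 16 of 23 alternative fits. No group here has enough libraries for a search for single libraries that stand apart.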

How the results depend on the processing

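Of the 200 members, 175 were chosen again with a pseudocount of 0.1, 195 with median-ratio scaling, and 168 to 200 when a library was left out, fewest without L3 replicate 2. Fits of only the libraries compared called 33 members for X minus L at stage 2, 82 at stage 3, 0 for stage 2 minus 1 in L, 27 for stage 4 minus 3 in L and 0 for the species difference of stage 2 minus 1. With a pseudocount of 0.1 the counts were 99 for X minus L at stage 4, 2 for stage 2 minus 1 in L, 33 for stage 4 minus 3 in X and 0 for the species difference of stage 2 minus 1. That last count was also 0 with no filter, with voom and with the replicate block. Voom gave 79 for the species difference of stage 4 minus 3. Other alternatives that kept all libraries stayed within 1.5 times of the main count.

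Leaving out a library in turn gave 50 to 116 members called for X minus L at stage 1, 23 to 73 at stage 2, 32 to 56 at stage 4, 60 to 168 at stage 3 and 40 to 71 for the mean of the stages. It gave 0 to 10 for stage 2 minus 1 in L, 0 to 2 in X and 0 to 4 for their difference, and 75 to 176 for stage 4 minus 3 in L, 7 to 23 in X and 60 to 169 for their difference. A group with 1 library left is assumed to vary like the others. Leaving out a library can also change the share called over all genes tested, and that share is mostly not given here. The cause of these shifts was not tested. Of 177 called results of named genes, 100 lost the call in at least 1 alternative, and none changed sign in 4057 fits.

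The deviations of same-numbered libraries had no common direction: over 28 pairs of groups their correlation was -0.49 to 0.44, and 8 were over 0.1. Single pairs did deviate together, such as L2 with X3 at 0.44, or in opposite directions, such as L2 with X2 at -0.49. With the replicate block 147 members were called for stage 4 minus 3 in L and 107 for its difference between the species. Low levels limit the later stages: 20 and 22 members had 3 reads or fewer in the L4 libraries and 6 and 5 in those of X4.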
